A study of Mus musculus with 6 samples.

Results

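The teneurin genes Tenm2, Tenm3 and Tenm4, listed as Odz2, Odz3 and Odz4 in older annotations, were described here through the RNA intervals that crosslinked to PTBP1 or PTBP2 in mouse cortex. An interval was a member when its midpoint lay in the mm9 span of a gene on the gene's strand, namely for Tenm2 the minus strand of chromosome 11 (35.82 to 37.05 Mb), for Tenm3 the minus strand of chromosome 8 (49.32 to 49.92 Mb), and for Tenm4 the plus strand of chromosome 7 (103.32 to 104.06 Mb). These spans are 1230, 600 and 740 kb long. They held 12700 of the 940882 distinct intervals of the series, or 1.35%, of which 11189 lay in Tenm2, 479 in Tenm3 and 1032 in Tenm4. Members were chosen by the positions of the listed intervals, and the gene family was picked with earlier results of these libraries known, so the levels are given as descriptions.

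Teneurins are large transmembrane proteins of the neuronal surface that bind teneurins and latrophilins on other cells and take part in the matching of axons to their targets and in synapse formation. Tenm2 encodes a ligand of the latrophilin Adgrl1, Tenm3 is known in mouse for the wiring of visual and hippocampal circuits, and Tenm4 is known in mouse for a part in oligodendrocyte differentiation and myelination. PTBP1 and PTBP2 are related proteins that bind pyrimidine-rich stretches of RNA, often in introns, and act on splicing. PTBP1 predominates in progenitors and non-neuronal cells, and PTBP2 takes its place in newly formed neurons.

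The data were crosslinking and immunoprecipitation (CLIP) libraries of nuclear RNA from the cerebral cortex of BL6/129Sv mice on postnatal day 1, made with a modified iCLIP protocol. A FLAG antibody was used on Rosa-PTBP1; PTBP2 loxp/loxp; Emx1-Cre cortex (1 library, here FLAG loxP), on Rosa-PTBP1; Emx1-cre cortex (1 library, FLAG Rosa-PTBP1) and on WT cortex (2 libraries, FLAG WT replicates 1 and 2). A PTBP2 antibody was used on Rosa-PTBP1; Emx1-cre cortex (1 library, PTBP2 Rosa-PTBP1) and on WT cortex (1 library, PTBP2 WT). Complexes were cut from the membrane between 80 and 110 kDa, above the proteins without RNA, which have 60 kDa (FLAG-PTBP1) and 58 kDa (PTBP2). The Rosa-PTBP1 transgene supplies PTBP1 with a FLAG tag. Emx1 drives the recombinase in the dorsal forebrain lineage, so cells of other origin in the same cortex are not targeted. The transgene and the recombinase were always present together, so a contrast with WT holds both. WT cortex has no FLAG-PTBP1, and its FLAG libraries hold the background of the antibody. The other 4 libraries are called PTBP libraries here. The labels do not tell whether the WT replicates came from separate animals, so their spread may be technical, and the extent of PTBP2 deletion was not analysed here. In whole cortex, fewer cells of a type and less RNA per cell cannot be told apart, and neither can more teneurin RNA and more binding per RNA.

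Each list holds read intervals of significant clusters without a score. Intervals that overlapped or touched on 1 strand were merged into a site, and a stacked site is one of 5 or more distinct intervals. The libraries held 265953 intervals in 34912 sites (FLAG loxP), 351602 in 43026 (FLAG Rosa-PTBP1), 74416 in 22637 (PTBP2 Rosa-PTBP1), 155447 in 27469 (PTBP2 WT), and 88327 in 73519 and 26665 in 9567 (FLAG WT replicates 1 and 2). Several stood apart. FLAG WT replicate 1 had single intervals at 85.8% of its sites and 402 stacked sites in all. Replicate 2 was the shallowest library. PTBP2 Rosa-PTBP1 was sparse on 7 chromosomes, meaning that their share of its sites was below 0.5 times the median share of the other libraries. Among these were chromosome 8, with 121 sites, and chromosome 7, with 229 sites, so Tenm3 and Tenm4 were not compared in that library. FLAG Rosa-PTBP1 was sparse on chromosome 10. By their read names, FLAG loxP, FLAG Rosa-PTBP1 and FLAG WT replicate 2 came from 1 sequencing run, and the other libraries from 2 other runs.

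Tenm2 was the most densely listed of the loci. FLAG loxP had 3395 distinct Tenm2 intervals in 288 sites, FLAG Rosa-PTBP1 5374 in 465, PTBP2 Rosa-PTBP1 755 in 149, PTBP2 WT 1194 in 188, and FLAG WT replicates 1 and 2 had 400 in 317 and 262 in 59. As a share of all intervals of a library this was 1.28%, 1.53%, 1.01% and 0.768% in the 4 PTBP libraries in that order, against 0.453% and 0.983% in the FLAG WT replicates. A background library thus lay above PTBP2 WT on this measure. Tenm2 held 21.1% of all chromosome 11 sites in FLAG loxP, 24.3% in FLAG Rosa-PTBP1, 8.12% in PTBP2 Rosa-PTBP1 and 14.9% in PTBP2 WT, against 8.42% and 9.42% in the FLAG WT replicates.

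Per 1000 sites of a library, the Tenm2 level was 8.25 in FLAG loxP (95% Clopper-Pearson interval 7.33 to 9.25), 10.8 in FLAG Rosa-PTBP1 (9.85 to 11.8), 6.58 in PTBP2 Rosa-PTBP1 (5.57 to 7.72) and 6.84 in PTBP2 WT (5.90 to 7.89), against 4.31 in FLAG WT replicate 1 (3.85 to 4.81) and 6.17 in replicate 2 (4.70 to 7.95). These intervals cover counting error only, here and throughout. FLAG Rosa-PTBP1 had the highest level and, over all chromosomes, its interval stood clear of the next, that of FLAG loxP. FLAG Rosa-PTBP1 had 85 sites on its sparse chromosome 10 against 2194 in FLAG loxP, which raises its share elsewhere. On chromosomes filled in both, the levels were closer, at 10.8 and 8.80. Further down the order, through PTBP2 WT, PTBP2 Rosa-PTBP1, FLAG WT replicate 2 and replicate 1, neighbours had overlapping intervals. PTBP2 Rosa-PTBP1 has few sites on its sparse chromosomes, which raises its share of sites elsewhere.

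The Tenm2 sites were deeper than the sites of the same libraries at large. Stacked sites made up 69.8% of Tenm2 sites in FLAG loxP, where the library as a whole had 50.3%. In FLAG Rosa-PTBP1 they made up 70.8%, where the whole library had 56.3%. In PTBP2 Rosa-PTBP1 they made up 36.9%, where the whole library had 13.1%, and in PTBP2 WT 57.4%, where the whole library had 35.1%. FLAG WT replicate 2 had this too, with stacked sites at 50.8% of its 59 Tenm2 sites and 8.96% of all its sites, and replicate 1 had 3 stacked Tenm2 sites of 317. The deepest Tenm2 site held 174 intervals in FLAG loxP, 191 in FLAG Rosa-PTBP1, 56 in PTBP2 Rosa-PTBP1 and 57 in PTBP2 WT, against 7 and 15 in FLAG WT replicates 1 and 2. These depths also follow the size of a library. As a share of all its intervals, the deepest Tenm2 site held 0.0654%, 0.0543%, 0.0753% and 0.0367% in the PTBP libraries in that order, against 0.00793% and 0.0563% in the FLAG WT replicates, so replicate 2 lay among the PTBP libraries.

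Tenm3 and Tenm4 were listed far more thinly. Tenm3 had 54 intervals in 13 sites in FLAG loxP, 227 in 38 in FLAG Rosa-PTBP1 and 94 in 18 in PTBP2 WT, against 100 in 85 and 6 in 4 in FLAG WT replicates 1 and 2. Per 1000 sites this was 0.372 (0.198 to 0.637) in FLAG loxP, 0.883 (0.625 to 1.21) in FLAG Rosa-PTBP1 and 0.655 (0.388 to 1.04) in PTBP2 WT, against 1.16 (0.924 to 1.43) and 0.418 (0.114 to 1.07) in the FLAG WT replicates. The highest share of Tenm3 sites was therefore in a background library. In the order of levels each library's interval overlapped that of its neighbour, but the interval of FLAG loxP lay wholly below that of FLAG WT replicate 1. Stacked Tenm3 sites numbered 8, 20 and 8 in FLAG loxP, FLAG Rosa-PTBP1 and PTBP2 WT, and 0 in both FLAG WT replicates. These were 61.5%, 52.6% and 44.4% of the Tenm3 sites, where the whole libraries had 50.3%, 56.3% and 35.1%. The FLAG WT replicates had stacked sites at only 0.547% and 8.96% of all their sites, so 0 of 85 and 0 of 4 do not set Tenm3 apart.

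Tenm4 had 268 intervals in 46 sites in FLAG loxP, 548 in 85 in FLAG Rosa-PTBP1 and 77 in 15 in PTBP2 WT, against 129 in 103 and 19 in 9 in FLAG WT replicates 1 and 2. Per 1000 sites this was 1.32 (0.965 to 1.76) in FLAG loxP, 1.98 (1.58 to 2.44) in FLAG Rosa-PTBP1 and 0.546 (0.306 to 0.901) in PTBP2 WT, against 1.40 (1.14 to 1.70) and 0.941 (0.430 to 1.79) in the FLAG WT replicates. Neighbours in the order overlapped. The interval of PTBP2 WT lay below those of FLAG Rosa-PTBP1, FLAG loxP and FLAG WT replicate 1, the last a background library. FLAG loxP did not exceed this replicate. Stacked Tenm4 sites numbered 22, 45 and 6 in the PTBP libraries in the same order, against 2 and 0 in the FLAG WT replicates. These were 47.8%, 52.9% and 40% of the Tenm4 sites in the PTBP libraries, near the whole-library shares given for Tenm3. In FLAG WT replicate 1 they were 1.94% of 103 sites, and replicate 2 had 9 sites in all. Per 100 kb of locus, FLAG Rosa-PTBP1 had 37.8 Tenm2 sites, 6.33 Tenm3 sites and 11.5 Tenm4 sites, so the loci differed in density as well as in number.

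**Figure D1:**
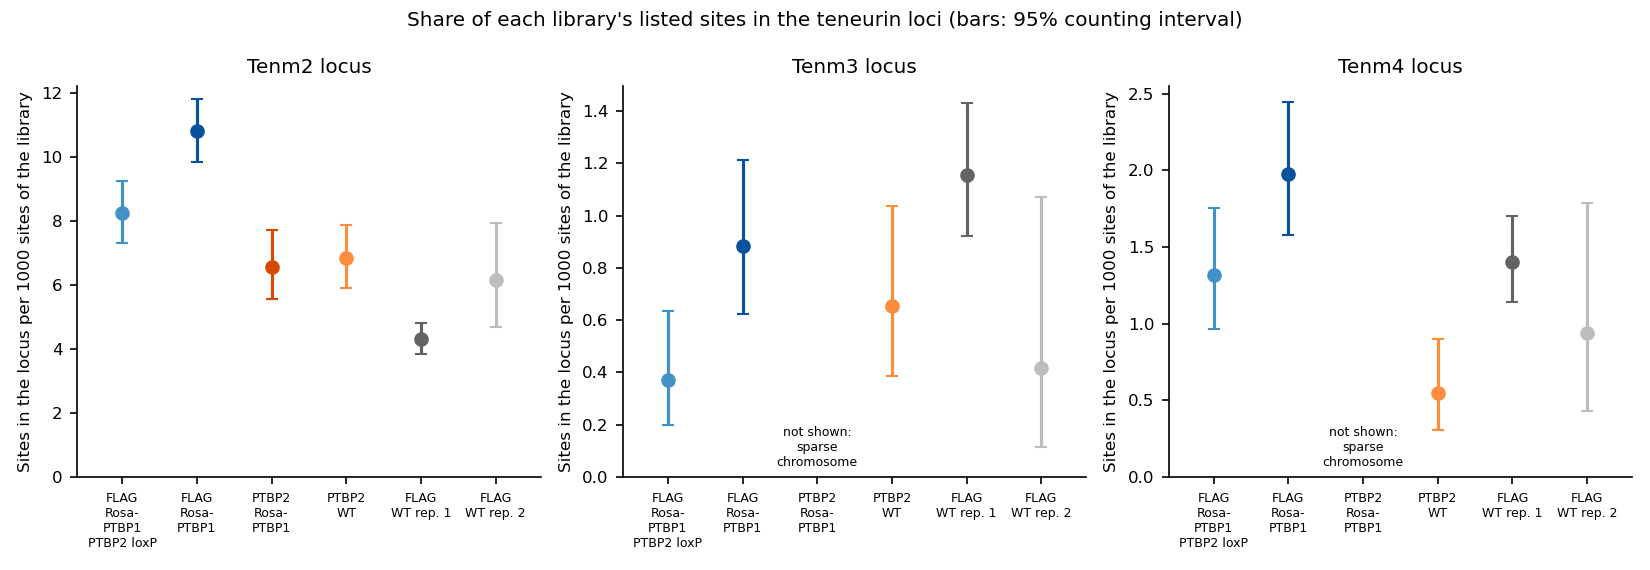
Sites in the Tenm2, Tenm3 and Tenm4 loci per 1000 sites of each library (points), with 95% Clopper-Pearson intervals for counting error (bars). FLAG Rosa-PTBP1 is highest for Tenm2 at 10.8 and for Tenm4 at 1.98, while for Tenm3 the highest point is FLAG WT replicate 1 at 1.16.

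The opposite strand of the spans held 0 intervals in all 6 libraries. This is general to the lists, since at most 0.0988% of the sites in site-rich 100-kb windows of any library, background included, lay on the minor strand. The interval nearest to an edge of the Tenm2 span lay 6.60 kb inside and 27.1 kb outside the low-coordinate edge, and 293 kb inside and 1280 kb outside the other. For Tenm3 these distances were 5.51 and 1.89 kb at the low edge and 163 and 1575 kb at the high edge. For Tenm4 they were 39.8 and 1535 kb at the low edge, and 4.66 and 43.7 kb at the high edge. Tenm2 and Tenm3 are read toward lower coordinates, so long first stretches of both spans were listed at 0. Without an mm9 annotation, no interval was assigned to an exon, an intron or a UTR.

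Tenm2 sites lay in the middle of the gene. Cut into 4 equal parts from the 5′ to the 3′ edge, the span held 5, 122, 152 and 9 sites in FLAG loxP, and 4, 248, 198 and 15 in FLAG Rosa-PTBP1. PTBP2 Rosa-PTBP1 had 3, 63, 69 and 14 in these parts, against 2, 94, 85 and 7 in PTBP2 WT. The FLAG background was 2, 173, 98 and 44 in FLAG WT replicate 1 and 0, 37, 18 and 4 in replicate 2. The first part was thus nearly empty in every library, background included. In all 6 libraries the 100-kb window with most Tenm2 sites was the one from 36.4 to 36.5 Mb. Its sites numbered 126 in FLAG loxP, 181 in FLAG Rosa-PTBP1, 57 in PTBP2 Rosa-PTBP1 and 80 in PTBP2 WT, against 79 and 25 in the FLAG WT replicates. Among all windows it ranked 6, 2, 2 and 10 by number of sites in the PTBP libraries, and 7 and 3 in the FLAG WT replicates.

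Tenm4 differed from Tenm2 in having its FLAG-PTBP1 sites near the 5′ edge. The first of 4 equal parts of the span held 28 of the 46 sites in FLAG loxP (60.9%), 61 of the 85 in FLAG Rosa-PTBP1 (71.8%) and 7 of the 15 in PTBP2 WT (46.7%). In FLAG WT replicate 1 it held 28 of 103 (27.2%), and in replicate 2 it held 1 of 9. Sites of FLAG WT replicate 1 were thus spread along Tenm4, where FLAG-PTBP1 sites were gathered at its start. In Tenm3 the window from 49.6 to 49.7 Mb held most sites in every library that was filled there, with 5 in FLAG loxP, 26 in FLAG Rosa-PTBP1 and 9 in PTBP2 WT, against 25 and 3 in the FLAG WT replicates.

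**Figure D2:**
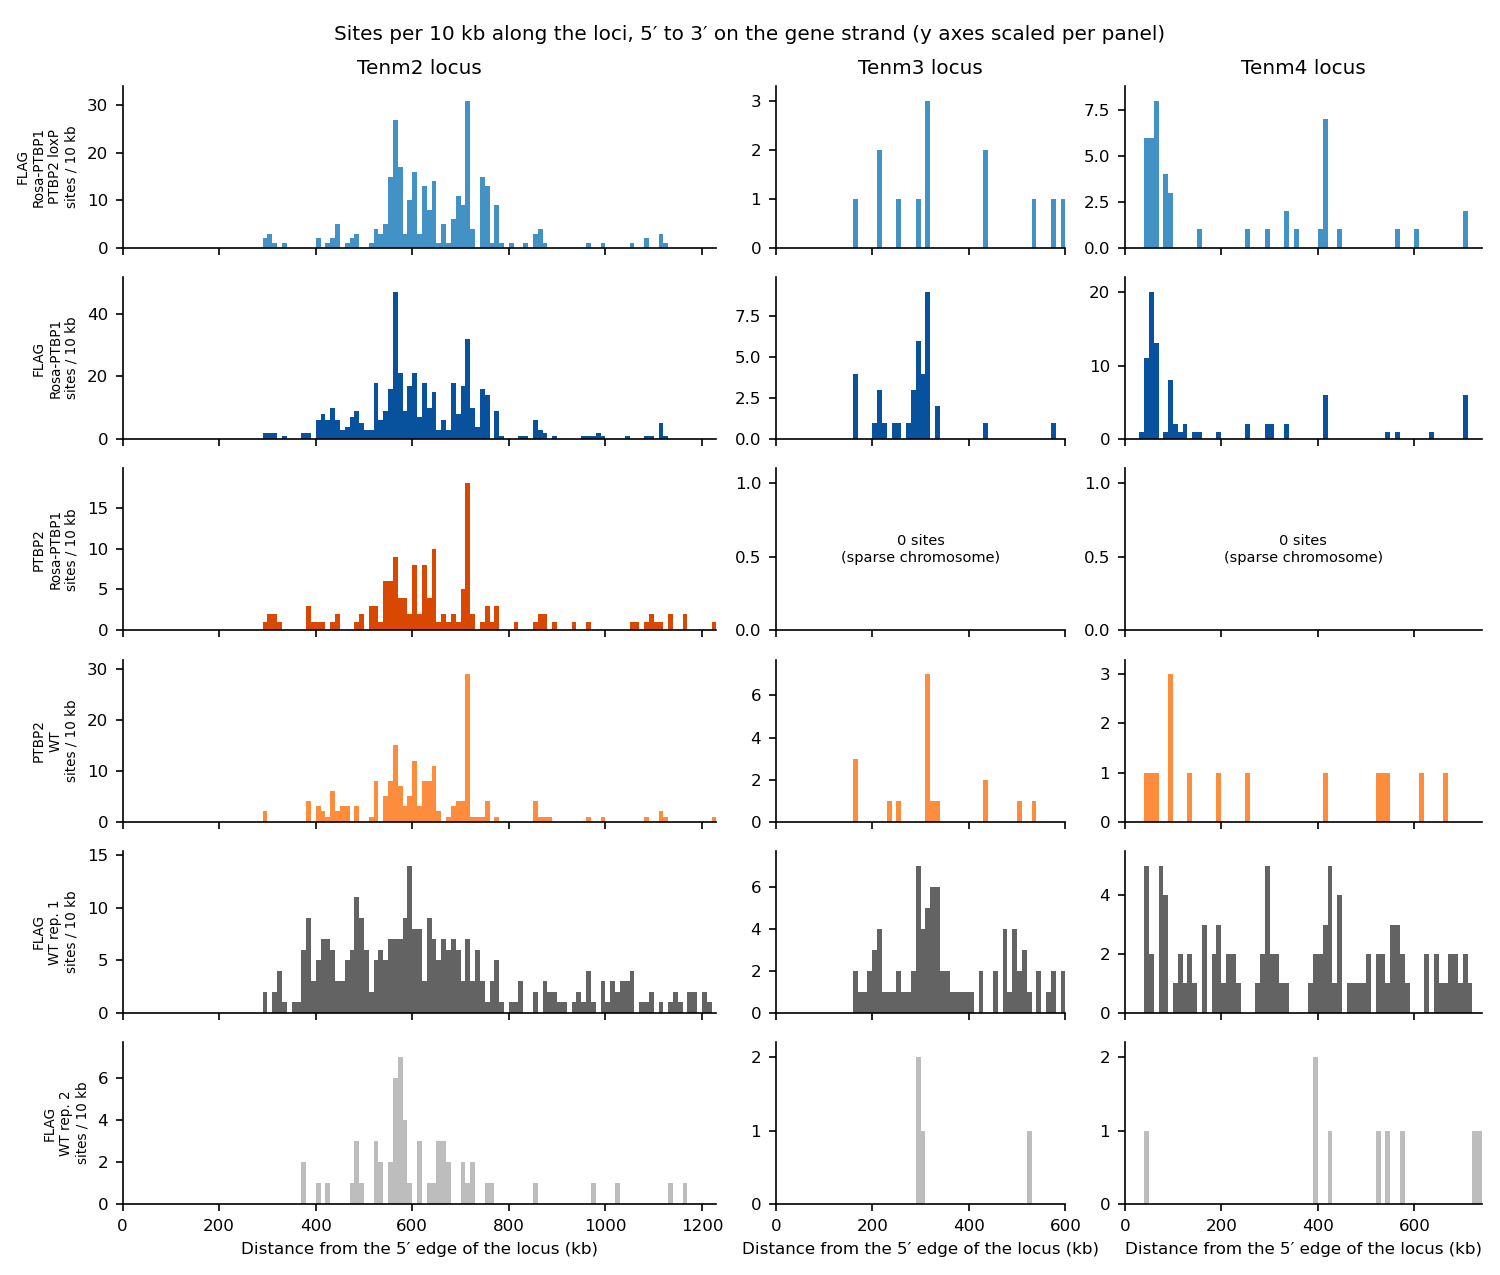
Number of sites in 10-kb bins from the 5′ to the 3′ edge of each locus (kb), 1 row per library, with a y axis of its own in each panel. Tenm2 sites gather in the middle of the span in every library, and Tenm4 sites near the 5′ edge in FLAG loxP and FLAG Rosa-PTBP1 but not in FLAG WT replicate 1.

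Intervals of the 6 libraries were merged into 1251 regions, 891 in Tenm2, 137 in Tenm3 and 223 in Tenm4, to follow single binding regions across libraries. Of the 789 regions listed in at least 1 PTBP library, 684 were listed in neither FLAG WT library (86.7%), where this held for 94.1% of such regions over the genome. A further 462 regions of the loci were listed in FLAG WT alone (36.9%), 428 of them in replicate 1 alone (34.2%), beside 45.8% and 40.8% of the 168274 regions over the genome. In Tenm2, 38 of the 891 regions were listed in all 4 PTBP libraries (4.26%), against 1.85% of 101299 regions over the chromosomes filled in all libraries. None of the 1251 was listed in all 6 libraries, which is rare in general, at 0.0434% over the genome.

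The deepest region of Tenm2, chr11:36335060-36336016, spans 957 bases and lies 714 kb from the 5′ edge of the locus. Its intervals numbered 245 in FLAG loxP, 241 in FLAG Rosa-PTBP1, 32 in PTBP2 Rosa-PTBP1 and 53 in PTBP2 WT, and it was listed at 0 in both FLAG WT libraries. Its neighbour at chr11:36336127-36336871 held 128, 191, 14 and 18 in the same order, also with 0 in FLAG WT. The balance between the antibodies varied among the deepest regions. At chr11:36298628-36299364 FLAG loxP had 141 intervals, FLAG Rosa-PTBP1 180, PTBP2 Rosa-PTBP1 57 and PTBP2 WT 55, and FLAG WT 0. At chr11:36491250-36491638 these libraries had 86, 88, 56 and 60 in the same order, against 2 and 0 in FLAG WT. This last region made up 1.64% of the Tenm2 intervals of FLAG Rosa-PTBP1, 7.42% of those of PTBP2 Rosa-PTBP1 and 5.03% of those of PTBP2 WT. At chr11:36448082-36448931 the FLAG loxP and FLAG Rosa-PTBP1 libraries had 141 and 138, and PTBP2 Rosa-PTBP1 and PTBP2 WT had 10 and 39, with 0 in FLAG WT.

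The deepest Tenm3 region, chr8:49601644-49601838, had 12 intervals in FLAG loxP, 35 in FLAG Rosa-PTBP1 and 17 in PTBP2 WT, and 0 in FLAG WT. At chr8:49608673-49608861 there were 5, 25 and 12 in the same order. The region chr8:49756174-49756323, 164 kb from the 5′ edge, was deepest in PTBP2 WT, with 5 intervals in FLAG loxP and 12 in FLAG Rosa-PTBP1 against 23 in PTBP2 WT. The next regions, at chr8:49633643-49633755 and chr8:49633933-49634052, each held 15 intervals in FLAG Rosa-PTBP1. Both were listed at 0 in the other libraries that were filled on this chromosome.

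The deepest Tenm4 region, chr7:103413222-103413411, had 37 intervals in FLAG loxP, 31 in FLAG Rosa-PTBP1 and 20 in PTBP2 WT. At chr7:103731721-103731822, 412 kb from the 5′ edge and outside the 5′ cluster, there were 26, 33 and 15. Both regions were listed at 0 in FLAG WT, and they held 26.0% and 19.5% of the 77 Tenm4 intervals of PTBP2 WT. Regions at chr7:103385402-103385515, with 8 and 18 intervals in FLAG loxP and FLAG Rosa-PTBP1, and chr7:103374114-103374210, with 6 and 18, were listed at 0 in PTBP2 WT. The region chr7:103413574-103413728 had 26 intervals in FLAG Rosa-PTBP1 and was listed at 0 in every other library that was filled on this chromosome.

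**Figure D3:**
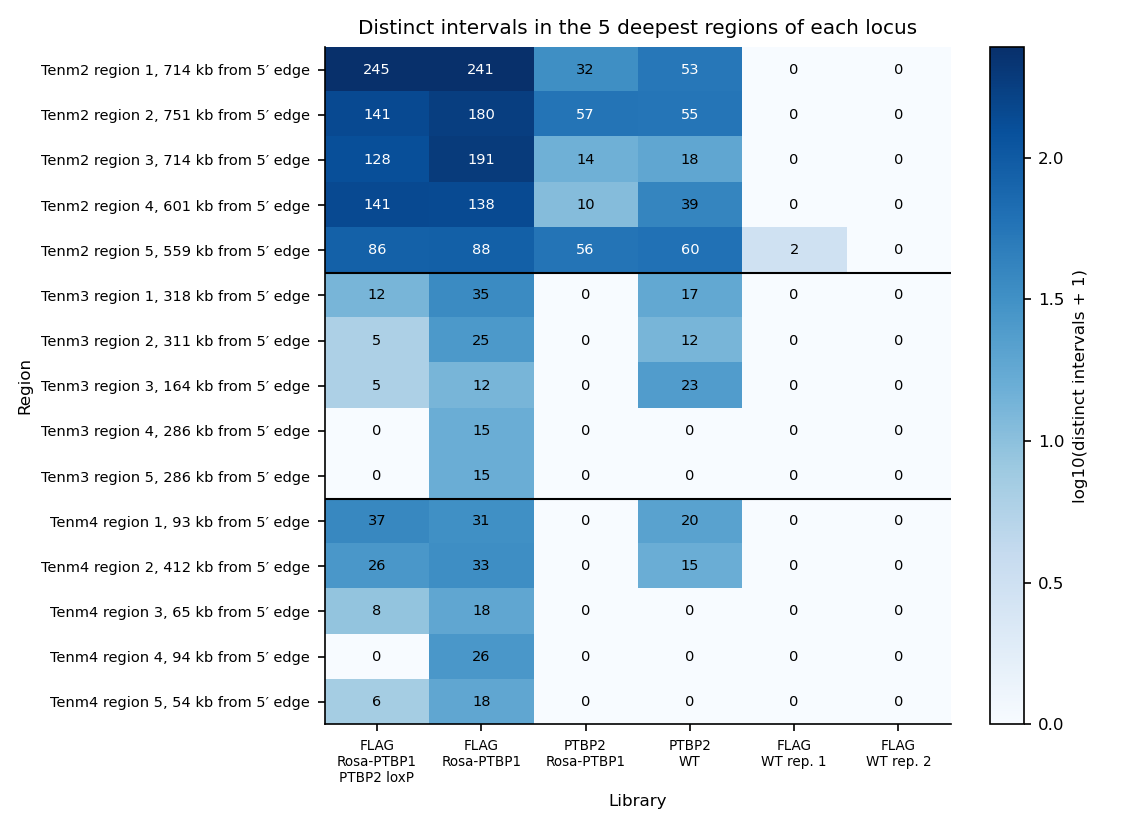
Distinct intervals in the 5 deepest regions of each locus (rows, with the distance from the 5′ edge in kb) in the 6 libraries (columns), shaded by log10 of the number plus 1. The FLAG WT columns hold 2 intervals in 1 Tenm2 region and are otherwise 0, and Tenm3 and Tenm4 are at 0 in PTBP2 Rosa-PTBP1, which is sparse on their chromosomes.

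Levels of FLAG-PTBP1 were first set against the FLAG background, as shares of the sites on chromosomes filled in all libraries compared. Tenm2 had 10.8 sites per 1000 in FLAG Rosa-PTBP1, against 5.51 ± 1.37 in FLAG WT (SD, n = 2), a share ratio of 1.96. It was 2.38 (2.06 to 2.76) over replicate 1 and 1.67 (1.27 to 2.23) over replicate 2, which came from the same run. The Tenm4 ratio was 1.61, with 1.98 per 1000 in FLAG Rosa-PTBP1 against 1.23 ± 0.345 in FLAG WT, and was 1.34 (0.994 to 1.80) and 2.00 (1.01 to 4.53) over replicates 1 and 2. The Tenm3 ratio was 1.07, with 0.885 against 0.829 ± 0.551. It was 0.726 (0.482 to 1.08) over replicate 1 and 2.01 (0.725 to 7.77) over replicate 2, so no direction could be read. Among stacked sites alone the Tenm2 ratio was 0.610, with a range over the mean ± SD of FLAG WT of 0.319 to 6.82. It rested on 329 of 24241 stacked sites in FLAG Rosa-PTBP1 against 3 of 402 and 30 of 857 in FLAG WT replicates 1 and 2, and was 1.71 (0.581 to 8.35) over replicate 1 and 0.371 (0.255 to 0.559) over replicate 2. For Tenm4 it was 0.703, from 0.291 with no upper bound, since FLAG WT had 2 and 0 stacked sites there.

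Windows of 100 kb on 1 strand with 20 or more sites over the libraries compared were called when their shares differed by more than 2-fold. Of 15 windows in the loci, 5 were called higher in FLAG Rosa-PTBP1 than in FLAG WT and 3 lower, where 47.8% of 1372 windows over the genome were higher and 12.5% lower. The median ratio was 1.76 in the loci and 1.89 over the genome. The first window of Tenm4, from 103.3 to 103.4 Mb, had 45 sites in FLAG Rosa-PTBP1 against 12 and 1 in the FLAG WT replicates, a ratio of 7.44. The next, from 103.4 to 103.5 Mb, had 16 against 14 and 0 (3.71). Farther 3′, the Tenm4 window from 103.8 to 103.9 Mb had 2 sites against 17 and 3 (0.162). The called Tenm2 windows lay from 36.2 to 36.5 Mb, at ratios of 2.79, 2.49 and 2.17. Without replicate 1, 3 of 7 windows in the loci were called higher and 0 lower (84.8% and 1.43% of 559 over the genome). Without replicate 2, 4 of 14 were called higher and 2 lower (35.1% and 12.5% of 1275).

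Single regions with 20 or more intervals over the libraries compared were treated in the same way, by their share of a library's intervals. Of 74 such regions in the loci, 62 were called higher in FLAG Rosa-PTBP1 than in FLAG WT and 6 lower, where 91.9% of 3143 over the genome were higher and 4.80% lower. The minimum was on intervals summed over the libraries, and FLAG Rosa-PTBP1 held 351602 against 88327 and 26665 in FLAG WT. A region could pass through FLAG Rosa-PTBP1 alone, which favours calls of higher, so these counts were not read as enrichment over background. The 6 lower regions all lay in Tenm2. Among them were chr11:36347603-36347727 and chr11:36490327-36490487, where FLAG Rosa-PTBP1 had 13 intervals each and the FLAG WT replicates 0 and 10 (ratio 0.190), and chr11:36478902-36479121, with 12 against 0 and 9 (0.195). All intervals of FLAG WT at these 3 regions came from replicate 2. Without replicate 1, 57 of 72 regions in the loci were called higher and 10 lower (91.5% and 6.43% of 3093 over the genome). Without replicate 2, 67 of 67 were called higher and 0 lower (98.3% and 0.460% of 3042).

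FLAG-PTBP1 was then compared between cortex with and without the PTBP2 loxP alleles, 2 libraries of the same antibody and run. All loci had lower shares of sites in FLAG loxP. The Tenm2 ratio of FLAG loxP over FLAG Rosa-PTBP1 was 0.813 (0.699 to 0.944), from 8.80 per 1000 in FLAG loxP against 10.8 in FLAG Rosa-PTBP1. The interval reached 1 among stacked sites (0.903, 0.754 to 1.08) and with chromosome 11 alone in the denominator (0.866, 0.745 to 1.01). The Tenm3 ratio was 0.449 (0.219 to 0.862), from 13 sites against 38. Among stacked sites its interval also reached 1 (0.591, 0.225 to 1.40), from 8 sites against 20. The Tenm4 ratio was 0.710 (0.485 to 1.03), from 46 sites against 85. With 1 library per group these differences have no replicate check.

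The lower Tenm2 share lay toward the 5′ side of its sites. The window from 36.5 to 36.6 Mb had 19 sites in FLAG loxP against 67 in FLAG Rosa-PTBP1, a ratio of 0.372 (0.211 to 0.627), and the one from 36.6 to 36.7 Mb had 10 against 40 (0.328, 0.146 to 0.668). The windows from 36.4 to 36.5 Mb, with 126 against 181 (0.914, 0.722 to 1.15), and from 36.3 to 36.4 Mb, with 83 against 117 (0.931, 0.694 to 1.24), lay near 1. From 36.2 to 36.3 Mb both libraries had 26 sites (1.31, 0.732 to 2.35). Added up in 2 stretches chosen after these values were seen, 36.5 to 36.7 Mb had 29 sites against 107 (0.356, 0.227 to 0.540) and 36.2 to 36.5 Mb had 235 against 324 (0.952, 0.801 to 1.13). In the 5′ stretch the FLAG WT libraries held 106 and 14 sites. In Tenm3 the window from 49.6 to 49.7 Mb had 5 sites in FLAG loxP against 26 in FLAG Rosa-PTBP1 (0.252, 0.0757 to 0.668). In Tenm4 the first window had 20 against 45 (0.583, 0.326 to 1.01).

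These 3 windows below 0.5, of 9 in the loci, stood beside 10.6% of 834 windows called lower over the genome, and 0 of the 9 were called higher, beside 4.08%. The median ratio was 0.656 in the loci and 0.951 over the genome. Of 111 regions in the loci, 12 were called higher in FLAG loxP and 21 lower, where 13.9% of 5780 were higher and 15.0% lower over the genome. With a minimum of 10 intervals, 28 of 242 regions in the loci were higher and 92 lower (11.6% and 38.0%), beside 17.6% and 26.2% over the genome. FLAG Rosa-PTBP1 held 351602 intervals against 265953 in FLAG loxP. A region could pass either minimum through FLAG Rosa-PTBP1 alone, which favours calls of lower, so these counts were not read as a loss of binding. Regions of 1 window could differ in direction. At chr11:36489414-36489544 there were 21 intervals in FLAG loxP against 2 in FLAG Rosa-PTBP1 (14.8, 3.62 to 130), while chr11:36486750-36486900, less than 3 kb away, was listed at 0 in FLAG loxP against 23 in FLAG Rosa-PTBP1. Further regions higher in FLAG loxP were chr7:103385223-103385350 in Tenm4, with 17 against 5 (4.79, 1.70 to 16.6), and chr11:36297428-36297567 in Tenm2, with 22 against 8 (3.88, 1.66 to 10.1). Besides the Tenm4 region with 26 intervals described above, chr11:36611925-36612012 in Tenm2 was listed at 0 in FLAG loxP against 25 in FLAG Rosa-PTBP1.

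FLAG-PTBP1 in cortex with PTBP2 loxP alleles was also set against PTBP2 in WT cortex. Antibody, genotype and sequencing run all differ between these libraries and cannot be told apart. The Tenm2 share was 8.25 per 1000 sites in FLAG loxP against 6.85 in PTBP2 WT (ratio 1.21, 0.999 to 1.46). In distinct intervals the ratio was 1.66 (1.55 to 1.78), with chromosome 11 alone in the denominator 1.41 (1.17 to 1.71), and among stacked sites 1.022 (0.805 to 1.30). Tenm4 was higher in FLAG loxP, with 1.32 per 1000 against 0.546 (2.41, 1.32 to 4.65), and Tenm3 had 0.372 against 0.655 (0.568, 0.256 to 1.23). At both loci FLAG loxP was not above the background of FLAG WT replicate 1, which had 1.40 for Tenm4 and 1.16 for Tenm3. Within Tenm2 the ratio fell window by window toward the 5′ side. It was 4.09 (1.55 to 13.6) from 36.2 to 36.3 Mb, with 26 sites against 5, then 1.42, 1.24 and 0.650 in the following windows, and 0.437 (0.180 to 0.999) from 36.6 to 36.7 Mb, with 10 sites against 18. The first Tenm4 window had 20 sites against 3 (5.24, 1.56 to 27.6).

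Of 6 windows in the loci, 2 were thus called higher in FLAG loxP than in PTBP2 WT and 1 lower, where 20.2% of 634 windows over the genome were higher and 3.79% lower. Of 56 regions in the loci, 32 were called higher, all of them in Tenm2, and 5 lower, where 26.8% of 3587 were higher and 19.2% lower. The median ratio of regions was 2.17 in the loci and 1.04 over the genome. FLAG loxP held 265953 intervals against 155447 in PTBP2 WT. A region could pass the minimum through FLAG loxP alone, which favours calls of higher, so these counts were not read as a gain of binding. The region with the most intervals among those listed at 0 in PTBP2 WT, chr11:36299783-36300431, held 126 in FLAG loxP. It lies less than 1 kb from the region at chr11:36298628-36299364, where FLAG loxP had 141 intervals and PTBP2 WT 55. Regions at chr11:36364683-36364906 and chr11:36303046-36303237 held 29 and 26 intervals in FLAG loxP and were listed at 0 in PTBP2 WT. Lower in FLAG loxP were the Tenm3 region chr8:49756174-49756323, with 5 intervals against 23 (0.127, 0.0377 to 0.341), and the Tenm2 regions chr11:36450669-36450768, with 5 against 17 (0.172, 0.0495 to 0.485), and chr11:36407415-36407550, with 12 against 18 (0.389, 0.171 to 0.854). This last region held 6 intervals in FLAG WT replicate 2, so it was not free of background.

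PTBP2 was compared between Rosa-PTBP1 and WT cortex in Tenm2 alone. Over chromosomes filled in both libraries, Tenm2 had 7.12 sites per 1000 in PTBP2 Rosa-PTBP1 against 10.7 in PTBP2 WT, a ratio of 0.663 (0.531 to 0.827). This value depended on what was counted. It was 0.966 in distinct intervals, 0.545 (0.436 to 0.679) with chromosome 11 alone in the denominator and 1.18 (0.838 to 1.65) among stacked sites. With all chromosomes in the denominator it was 0.962, but there the sparse chromosomes of PTBP2 Rosa-PTBP1 raise its share. Within the 2 sequencing runs that both libraries share the ratio was 0.622 and 0.983. Of 4 Tenm2 windows, 0 were called higher and 1 lower, where 1.08% of 277 windows over the genome were higher and 40.4% lower. The median ratio of 0.589 in the locus lay beside 0.573 over the genome. The windows from 36.3 to 36.4 Mb (33 sites against 46), 36.4 to 36.5 Mb (57 against 80), 36.5 to 36.6 Mb (16 against 23) and 36.6 to 36.7 Mb (9 against 18) had ratios of 0.600, 0.596, 0.582 and 0.418. Of 16 regions, 0 were called higher and 1 lower, where 9.61% of 1218 were higher and 25.8% lower. The region called was chr11:36448082-36448931, with 10 intervals in PTBP2 Rosa-PTBP1 against 39 in PTBP2 WT (0.392, 0.174 to 0.799).

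Both proteins were finally compared in Rosa-PTBP1 cortex, again in Tenm2. Antibody, sequencing run and depth (351602 intervals against 74416) differ along with the protein and cannot be told apart from it. FLAG Rosa-PTBP1 had 17.5 Tenm2 sites per 1000 against 7.79 in PTBP2 Rosa-PTBP1, a ratio of 2.25 (1.87 to 2.73). Among stacked sites it was 0.995 (0.746 to 1.35). All 5 Tenm2 windows were called higher in FLAG Rosa-PTBP1 and 0 lower, where 57.1% of 443 windows over the genome were higher and 1.35% lower, and their median of 2.56 lay beside 2.34. Of 64 regions, 44 were called higher and 4 lower, where 51.0% of 2295 were higher and 16.9% lower. Here too a region could pass the minimum through the deeper FLAG Rosa-PTBP1 alone, which favours calls of higher. The region chr11:36339443-36339983 held 107 intervals in FLAG Rosa-PTBP1 and was listed at 0 in PTBP2 Rosa-PTBP1, as were chr11:36299783-36300431 with 87 and chr11:36479860-36480161 with 52. The region with 107 also held 8 intervals in PTBP2 WT and 2 in FLAG WT replicate 1. The region with 52 held 1 in PTBP2 WT and 6 in FLAG WT replicate 2, so neither was free of background. Relatively deeper for PTBP2 were chr11:35960072-35960235, toward the 3′ edge, with 8 intervals in FLAG Rosa-PTBP1 against 12 in PTBP2 Rosa-PTBP1 (0.184, 0.0654 to 0.490), and the pair at chr11:36423473-36423690, with 63 against 43 (0.405, 0.271 to 0.612), and chr11:36423697-36423810, with 12 against 10 (0.332, 0.131 to 0.857). PTBP2 WT had 49 and 11 intervals in the regions of that pair.

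**Figure D4:**
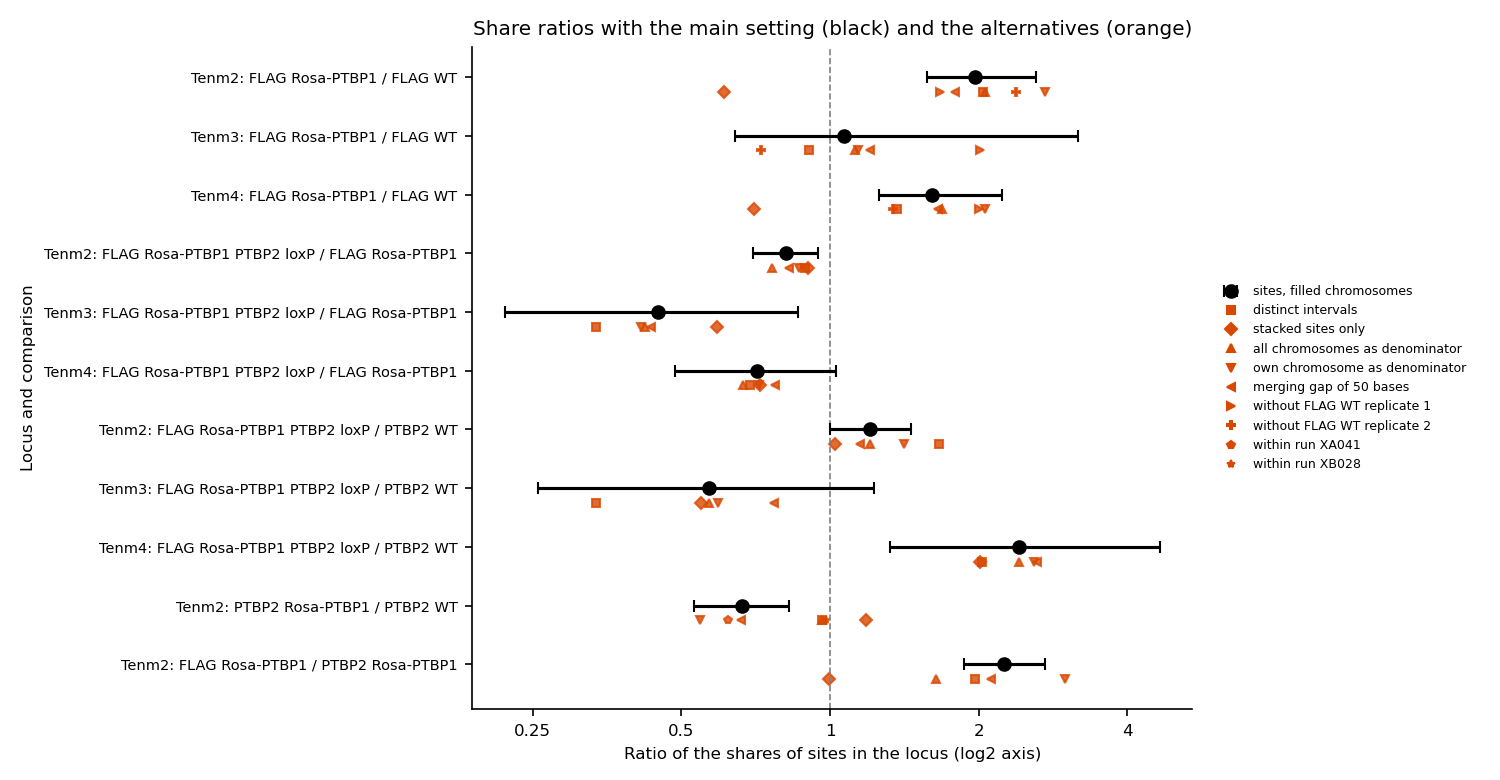
Ratios of the shares of sites in each locus for the 5 comparisons (black points, log2 axis), with 95% counting intervals or, over FLAG WT, the range given by the mean ± SD of its 2 replicates (black bars), and the same ratio under each alternative (orange). The points of stacked sites lie on the other side of 1 for Tenm2 (0.610) and Tenm4 (0.703) over FLAG WT and for Tenm2 in PTBP2 Rosa-PTBP1 over PTBP2 WT (1.18), and at 0.995 for Tenm2 over PTBP2 Rosa-PTBP1, each with a range that includes 1 and is not drawn. Over FLAG WT replicate 2 alone the Tenm2 value of stacked sites is 0.371 (0.255 to 0.559).

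Tenm2 sites coincided between libraries at higher shares than sites at large in most pairs. Overlap was counted as the share of a library's sites with at least 1 base in common with a site of the other on the same strand. In Tenm2, 69.8% (64.1 to 75.0) of the FLAG loxP sites coincided with one of FLAG Rosa-PTBP1, where 47.4% did so over all filled chromosomes. Of the FLAG Rosa-PTBP1 sites, 44.5% in Tenm2 and 36.1% of all overlapped one of FLAG loxP. For Tenm3 and Tenm4, 6 of 13 and 22 of 46 FLAG loxP sites overlapped one of FLAG Rosa-PTBP1 (46.2% and 47.8%). Of the PTBP2 WT sites in Tenm2, 64.9% (57.6 to 71.7) overlapped FLAG Rosa-PTBP1 and 57.4% (50.04 to 64.6) FLAG loxP, where 38.9% and 34.3% of all sites did. In Tenm4, 3 of 46 FLAG loxP sites overlapped one of PTBP2 WT (6.52%, 1.37 to 17.9), where 26.4% of all FLAG loxP sites did. Of the 15 PTBP2 WT sites in Tenm4, 7 overlapped FLAG Rosa-PTBP1 (46.7%, 21.3 to 73.4) and 3 FLAG loxP (95% interval 4.33 to 48.1%), and both of these intervals include the shares of all sites. PTBP2 Rosa-PTBP1 had 35.6% (27.9 to 43.8) of its Tenm2 sites in common with PTBP2 WT and 54.4% (46.0 to 62.5) with FLAG Rosa-PTBP1, where 17.9% and 20.6% of all sites did. Of the FLAG Rosa-PTBP1 sites in Tenm2, 16.1% (12.9 to 19.8) overlapped PTBP2 Rosa-PTBP1, which includes the 14.5% of all sites. The sites are denser in Tenm2 than at large, and the part of this density in the overlaps was not tested.

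The FLAG WT libraries took part in this overlap unequally. In replicate 2, 30 of 59 Tenm2 sites (50.8%, 37.5 to 64.1) met one of FLAG Rosa-PTBP1, where 9.57% of all its sites did. In replicate 1, 52 of 317 did (16.4%, 12.5 to 20.9), where 3.98% of all its sites did. The replicates overlapped each other at 4 of the 59 Tenm2 sites of replicate 2 (6.78%, 1.88 to 16.5). Replicate 2 came from the sequencing run of FLAG Rosa-PTBP1, and the part of the run in this overlap was not tested. In Tenm4, 0 of 9 sites of replicate 2 and 3 of 103 of replicate 1 overlapped FLAG Rosa-PTBP1.

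Windows outside the loci with the most similar levels were sought by the Euclidean distance of log2 shares of sites over the libraries whose chromosomes were filled. Tenm2 as a whole, over 6 libraries and 1496 windows, was nearest to chr2 6.7–6.8 Mb (distance 1.75), chr1 170.3–170.4 Mb (3.99) and chr16 6.8–6.9 Mb (4.03). In the first of these there were 187 sites in FLAG loxP, 204 in FLAG Rosa-PTBP1, 156 in PTBP2 Rosa-PTBP1 and 194 in PTBP2 WT, against 163 and 89 in the FLAG WT replicates. Tenm3, over 5 libraries and 2025 windows, was nearest to chr14 94.2–94.3 Mb (0.833), with 17 sites in FLAG loxP, 43 in FLAG Rosa-PTBP1 and 24 in PTBP2 WT, against 70 and 6 in the FLAG WT replicates. Next came chr2 6.5–6.6 Mb (1.31) and chr17 90.9–91 Mb (1.34). Tenm4 was nearest to chr13 42.8–42.9 Mb (1.06), with 32, 78 and 21 sites in the same libraries against 60 and 8, followed by chr18 69.5–69.6 Mb (1.08) and chr5 132.9–133 Mb (1.09). The distance reads level as well as pattern, so a small one means a window of similar size in the lists.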

How the data were processed

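Per the submitters' processing notes, reads were aligned to mm9 with Bowtie (version not given in the sources used here). The authors deposited 1 list per library of read intervals in significant clusters, per the file headers. The cluster caller and its level are likewise not stated there. The lists hold positions, strand and read name, with dots in the score column, so no deposited value is a measurement. A region at 0 may still have held reads. Lines were collapsed to distinct intervals, since an interval can stand on several lines.

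Share ratios used sites on chromosomes filled in both libraries, with an exact conditional binomial 95% interval. The mean share of both FLAG WT libraries stood for that group. Other groups had 1 library, so no significance test was made. Intervals cover counting error only, and PCR copies are not independent molecules. The named regions of each locus were the 5 with most intervals over the PTBP libraries and, per comparison, up to 3 with the highest and lowest ratios past 2-fold with 20 or more intervals. A region listed at 0 in 1 library counted as past 2-fold, and ties were broken by the larger number. The minimum was on counts summed over the libraries compared, so a region could pass through the deeper library alone. Windows with 20 or more sites were compared for likeness with 0.5 added. Members and lists were chosen with earlier results of these data known. A list of teneurin partners and all sequences were not analysed here, because the annotation at hand was of GRCm38 and coordinates were not converted. The ratio code was tested on simulated data. Alternatives were stacked sites, distinct intervals, other denominators, a merging gap of 50 bases, a minimum of 10, 3-fold, single runs, overlap within 50 bases and leaving out each FLAG WT replicate. Python 3.11.15, pandas 2.3.3, NumPy 2.4.6 and SciPy 1.17.1 were used.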

Additional observations from a re-analysis of the deposited data

How the results depend on the processing

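Of the values recomputed under alternatives, 104 moved within their error or within 1.5 times their count, 39 moved more and 4 reversed. Among the 104, Tenm3 in FLAG Rosa-PTBP1 over FLAG WT, at 1.07, fell on the other side of 1 in distinct intervals (0.906) and without replicate 2. The 4 reversed were share ratios among stacked sites, at 0.610 for Tenm2 and 0.703 for Tenm4 in FLAG Rosa-PTBP1 over FLAG WT, 1.18 for Tenm2 in PTBP2 Rosa-PTBP1 over PTBP2 WT and 0.995 for Tenm2 in FLAG Rosa-PTBP1 over PTBP2 Rosa-PTBP1. The range of each includes 1, so these values show no direction, and the cause was not tested. For Tenm2 over FLAG WT that range spans 2 unlike replicates. Over replicate 2 alone the Tenm2 value was 0.371 (0.255 to 0.559), below 1, and over replicate 1 alone it was 1.71 (0.581 to 8.35). For Tenm3 over FLAG WT this setting gave no value, since FLAG WT had 0 stacked sites there. In distinct intervals the Tenm2 ratio was 1.66 for FLAG loxP over PTBP2 WT and 0.966 for PTBP2 Rosa-PTBP1 over PTBP2 WT. With all chromosomes in the denominator, which raises the share of PTBP2 Rosa-PTBP1, its Tenm2 ratio over PTBP2 WT was 0.962. The Tenm2 ratio of FLAG Rosa-PTBP1 over PTBP2 Rosa-PTBP1 was then 1.64. With chromosome 11 alone it was 2.73 for FLAG Rosa-PTBP1 over FLAG WT and 2.998 over PTBP2 Rosa-PTBP1. Within run XB028 PTBP2 Rosa-PTBP1 over PTBP2 WT gave 0.983. Leaving out either FLAG WT replicate gave ratios of 1.67 to 2.38 for Tenm2, 0.726 to 2.01 for Tenm3 and 1.34 to 2.00 for Tenm4.

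A minimum of 10 tests more features, and a region could still pass it through the deeper library alone. In the loci it called, with the share over the genome in brackets, for FLAG Rosa-PTBP1 over FLAG WT, 6 of 22 windows lower (34.3%), and of 189 regions 168 higher (92.5%) and 14 lower (4.36%). For FLAG loxP over FLAG Rosa-PTBP1 it called 28 of 242 regions higher (17.6%) and 92 lower (26.2%). For FLAG loxP over PTBP2 WT it called 2 of 11 windows lower (8.32%), and of 116 regions 64 higher (36.5%) and 15 lower (20.8%). For PTBP2 Rosa-PTBP1 over PTBP2 WT it called 6 of 45 regions higher (11.4%) and 10 lower (36.4%), and for FLAG Rosa-PTBP1 over PTBP2 Rosa-PTBP1 132 of 180 higher (64.9%) and 18 lower (13.9%). Past 3-fold the counts were 2 of 15 windows higher over FLAG WT (31.8%), and 5 of 111 regions higher (5.38%) and 10 lower (7.98%) for FLAG loxP over FLAG Rosa-PTBP1. For FLAG loxP over PTBP2 WT they were 0 of 6 windows lower (0.631%), and of 56 regions 20 higher (18.4%) and 2 lower (9.84%). For PTBP2 Rosa-PTBP1 over PTBP2 WT 0 of 4 windows (12.3%) and 0 of 16 regions (15.0%) were lower, and for FLAG Rosa-PTBP1 over PTBP2 Rosa-PTBP1 2 of 5 windows were higher (34.8%) and 2 of 64 regions lower (8.98%). Leaving out a FLAG WT replicate was chosen for these counts after seeing the data. Without replicate 1 it gave 3 of 7 windows higher and 0 lower, and 57 of 72 regions higher and 10 lower. Without replicate 2 it gave 4 of 14 windows higher and 2 lower, and 67 of 67 regions higher and 0 lower.

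Overlap within 50 bases raised the Tenm2 shares to 75.3%, where all sites had 54.3% (FLAG loxP with FLAG Rosa-PTBP1), 51.4% and 42.7% (FLAG Rosa-PTBP1 with FLAG loxP), 71.8% and 43.5% (PTBP2 WT with FLAG Rosa-PTBP1), 40.6% and 32.2% (FLAG loxP with PTBP2 WT), 21.1% and 18.6% (FLAG Rosa-PTBP1 with PTBP2 Rosa-PTBP1) and 16.6% and 10.1% (FLAG Rosa-PTBP1 with FLAG WT replicate 1). No paired analysis was possible because the groups compared share fewer than 2 replicate numbers. The 13 to 46 Tenm3 and Tenm4 sites of FLAG loxP, the 15 and 18 of PTBP2 WT and the 4 and 9 of FLAG WT replicate 2 limit what these libraries can show at those loci.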
